A study of Mus musculus with 6 samples.

Results

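The genes described here are 41 interferon-stimulated genes (ISGs), taken by name as known responders to type I and type II interferon. The rule uses no measured value, but earlier results of these data were known when the genes were chosen. All 41 were present among the 25690 genes of the deposited table. RNA of mouse hepatic tissue was sequenced from 3 hepatic FTO knockout libraries (K7, K11 and K12, called here FTO knockout replicates 1, 2 and 3) and from 3 libraries of wildtype control mice (C34, C38 and C42, wild type replicates 1, 2 and 3). FTO removes methyl groups from N6-methyladenosine in RNA, and the series asks how its loss in the liver changes the transcriptome. The labels give no treatment, age, sex or strain, and do not say which Cre driver or allele made the knockout or whether each library was 1 animal. The p-values therefore measure the spread between these libraries, which may be technical.

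Interferons are secreted proteins that cells release on sensing viral or bacterial nucleic acids. Type I interferons bind the IFNAR receptor, whose JAK1 and TYK2 kinases phosphorylate STAT2 and other STAT proteins. With IRF9, STAT2 is part of the complex ISGF3, which binds the interferon-stimulated response element (ISRE). Interferon gamma, the type II interferon, acts through IFNGR and the gamma-activated site (GAS). The induced genes block viral entry, degrade viral RNA, restrain translation or attack vacuoles that hold pathogens, and some of them feed back on the pathway. In liver, hepatocytes, Kupffer cells and endothelial cells all respond to interferon.

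The promoters were searched for the letters of the ISRE and the GAS, the elements through which interferon is known to induce genes. RefSeq promoters (GRCm38.p6; 250 bases before to 50 after each annotated start, 1 or 2 per gene) were held for 31 of the 41 genes. The first set shows Isg15, the ISG with the most ISRE matches, and beside it Irf1 and Ifitm2, the genes with the smallest p in the comparison below. Capitals mark the searched letters, read 5′ to 3′ along the gene. Those letters were GAAANNGAAA for the ISRE and TTCNNNGAA for the GAS, on both strands, and ISRE matches were allowed to overlap each other.
Isg15, chr4:156200769-156201068, minus strand: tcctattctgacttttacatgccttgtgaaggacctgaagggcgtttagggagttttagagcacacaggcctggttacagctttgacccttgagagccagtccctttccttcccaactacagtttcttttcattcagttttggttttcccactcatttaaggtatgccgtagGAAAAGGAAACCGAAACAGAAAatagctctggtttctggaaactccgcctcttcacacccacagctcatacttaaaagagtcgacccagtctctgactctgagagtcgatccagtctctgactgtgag
Irf1, chr11:53769764-53770063, plus strand: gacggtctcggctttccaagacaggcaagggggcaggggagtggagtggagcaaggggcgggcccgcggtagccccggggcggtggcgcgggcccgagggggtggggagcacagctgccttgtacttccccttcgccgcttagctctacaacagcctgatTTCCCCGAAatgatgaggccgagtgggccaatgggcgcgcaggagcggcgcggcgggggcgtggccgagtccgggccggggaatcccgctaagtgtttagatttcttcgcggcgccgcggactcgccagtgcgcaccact
Ifitm2, chr7:140955912-140956211, minus strand: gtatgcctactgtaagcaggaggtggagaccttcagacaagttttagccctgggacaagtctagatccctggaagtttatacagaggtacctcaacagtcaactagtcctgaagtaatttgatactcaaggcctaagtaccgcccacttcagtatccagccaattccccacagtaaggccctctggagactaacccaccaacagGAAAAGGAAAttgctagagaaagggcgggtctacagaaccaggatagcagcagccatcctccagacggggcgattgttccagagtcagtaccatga
Isg15 held 3 overlapping ISRE matches from base -78 to base -57, counted from the annotated start. Irf1 held no ISRE letters and 1 GAS match at -90 to -82. Ifitm2 held 1 ISRE match at -46 to -37.

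The second set shows where the elements lie in other families, with the opposite-strand reading of the ISRE in Ifit1 and Gbp2.
Ifit1, chr19:34640754-34640843, plus strand: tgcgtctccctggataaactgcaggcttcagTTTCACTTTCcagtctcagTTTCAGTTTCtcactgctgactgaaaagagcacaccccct
Gbp2, chr3:142620563-142620652, plus strand: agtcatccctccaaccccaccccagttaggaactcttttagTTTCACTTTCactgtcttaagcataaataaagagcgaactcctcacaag
The third set shows paralogs whose promoters are nearly the same in a 90-base stretch around the ISRE.
Igtp, chr11:58199476-58199565, plus strand: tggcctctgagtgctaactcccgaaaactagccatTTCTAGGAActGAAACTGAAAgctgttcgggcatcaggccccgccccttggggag
Irgm2, chr11:58214867-58214956, plus strand: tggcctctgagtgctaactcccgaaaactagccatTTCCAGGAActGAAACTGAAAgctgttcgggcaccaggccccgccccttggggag
Oas1a, chr5:120907494-120907583, minus strand: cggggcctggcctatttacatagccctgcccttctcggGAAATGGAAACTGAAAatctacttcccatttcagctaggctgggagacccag
Oas1g, chr5:120887580-120887669, minus strand: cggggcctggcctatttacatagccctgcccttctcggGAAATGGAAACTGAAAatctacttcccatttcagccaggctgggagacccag
Igtp and Irgm2, which lie on the same strand, each held a GAS match just before an ISRE match, and their 90-base windows were identical at 88 of 90 bases (97.8%). Those of Oas1a and Oas1g were identical at 89 of 90 bases (98.9%). Outside this stretch the promoter of Oas1a held a GAS match at -98 to -90, and that of Oas1g held no GAS match.

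ISRE letters were present in 20 of the 31 promoters (64.5%), against 3.99% of the 27025 genes with a promoter in the table. The longer form GAAANNGAAAC was found in 15 (48.4%), against 0.944% of all genes. GAS letters were in 10 (32.3%), against 9.55%, and both elements were in 7 (22.6%), against 0.614%. By role, all 6 promoters of the GBP and IRG GTPases held ISRE letters, and Gbp7, Igtp and Irgm2 held GAS letters too. All 3 sensor promoters (Ifih1, Ddx58, Eif2ak2) and all 3 membrane factor promoters (Bst2, Ifitm2, Ifitm3) held ISRE letters. Neither element was found in 8 of the 31 (25.8%), against 87.1% of all genes. Those 8 were Irf7, Irf9, Oasl1, Oasl2, Trim25, Cmpk2, Ifi44 and Xaf1. A match is a description of the letters in this window.

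**Figure D1:**
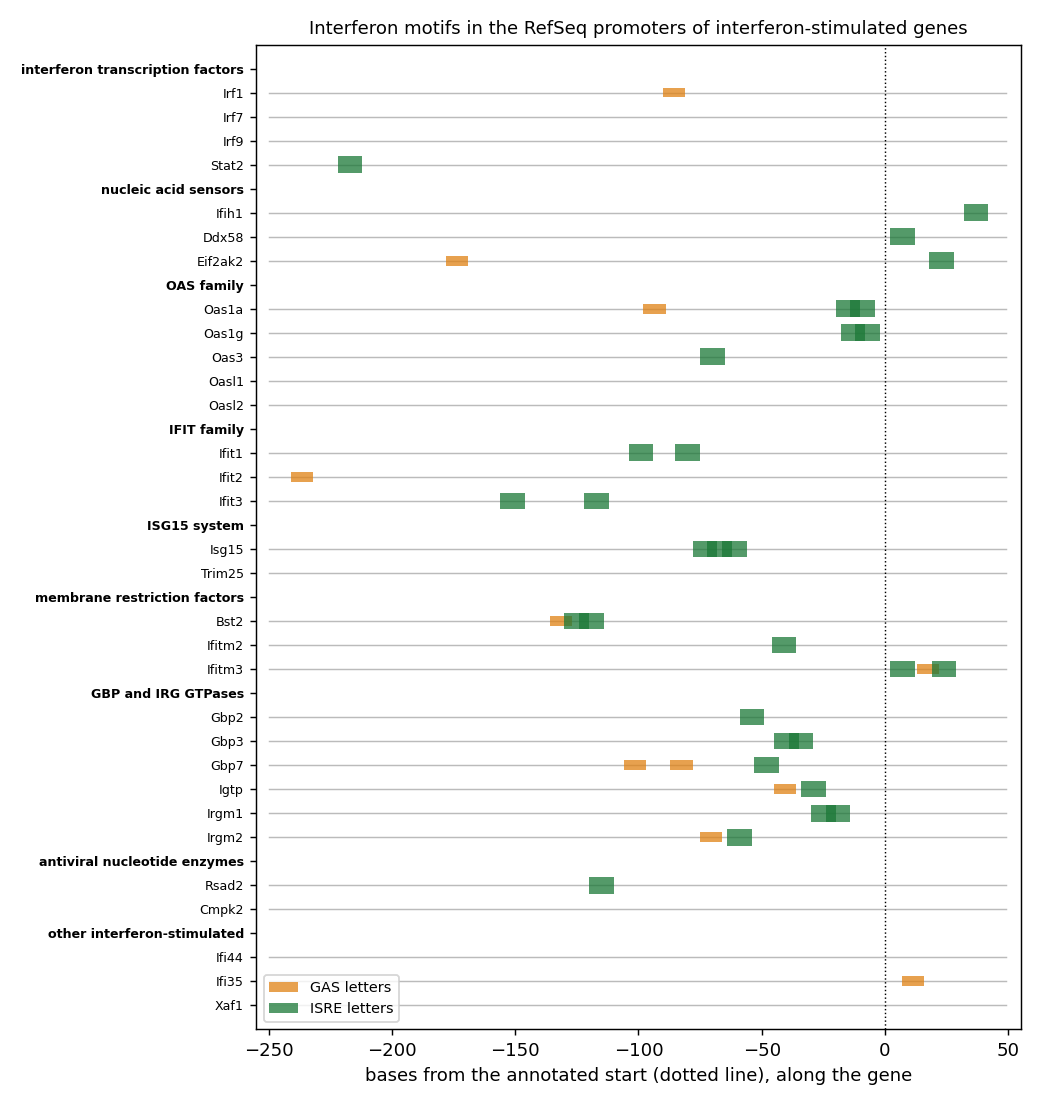
Positions of ISRE letters (green) and GAS letters (orange) in the RefSeq promoters of 31 interferon-stimulated genes, in bases from the annotated start, with 0 at the dotted line. All 6 GBP and IRG promoters carry ISRE letters before the start, and Oasl1, Oasl2 and Trim25 are among the 8 genes with no match.

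Fto itself was measured at 1.79, 3.83 and 2.66 FPKM in FTO knockout replicates 1, 2 and 3, against 6.67, 6.02 and 6.40 FPKM in wild type replicates 1, 2 and 3. FPKM scales fragments by transcript length and by the mapped total of the library, so levels can be compared between genes. These knockout values were 28.2%, 60.2% and 41.8% of the wild type average, and the log2 change was -1.004 ± 0.19 (SE; limma, adjusted p = 0.0386). This call was lost when any library except FTO knockout replicate 2 was left out, with an adjusted p up to 0.147, and with no filter on low values (0.0975). The value covers the whole gene and not the deleted part. The test was limma on log2(FPKM + 1) for the 10405 genes that averaged 1 FPKM or more over the 6 libraries, and a call means a p under 0.05 after Benjamini-Hochberg adjustment over these 10405 genes. Depth was inferred at 34140000 to 42530000 fragments, and at that depth a transcript of 2 kilobases at 1 FPKM corresponds to 68 to 85 fragments. Of the deposited values above 0, 50.9% had more than 6 significant digits, as a mean of several values would give, and what was averaged is not known. Depth and fragment numbers assume that the values used each stand for 1 whole fragment. Only implied depths inside a preset range were kept, which partly fixes the result, so these numbers are rough. Wild type replicate 3 stood apart: over all tested genes its median absolute log2 difference was 0.249 from wild type replicate 1 and 0.193 from wild type replicate 2, and these 2 differed by 0.126. The 3 knockout pairs differed by 0.145 to 0.171. Over the tested ISGs alone the wild type pairs differed by 0.322 to 0.330, so wild type replicate 3 did not stand apart. The knockout pairs differed by 0.192 to 0.520 over those ISGs. Albumin, the main hepatocyte product, was listed at 0 in FTO knockout replicate 3 and wild type replicate 1, so a value of 0 in this table need not mean absent RNA.

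The ISGs were expressed over a wide range in this hepatic tissue, from 0.0301 to 675.9 FPKM. Ifitm3, Ifitm2, Bst2, Ifi27 and Iigp1 averaged 100 FPKM or more over the 6 libraries, 9 genes averaged 10 to 100 FPKM, and 21 averaged 1 to 10 FPKM. The other 6 (Oas1g, Oas2, Oas3, Ifit2, Mx1 and Ifi44) averaged under 1 FPKM and were not tested. Ifitm3 was the most abundant at 517.1 FPKM, ahead of Ifitm2 at 289.1, Bst2 at 186.7, Ifi27 at 128.8 and Iigp1 at 110.8 FPKM, and the library ranges of these neighbours overlapped. Irgm1, next at 24.7 FPKM, lay clear below Iigp1, with 33.8 FPKM in its highest library and 80.8 FPKM in the lowest of Iigp1. Oas3 was the lowest at 0.105 FPKM, and a 2-kilobase transcript at 0.1 FPKM gives 6.8 to 8.5 fragments at this depth.

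**Figure D2:**
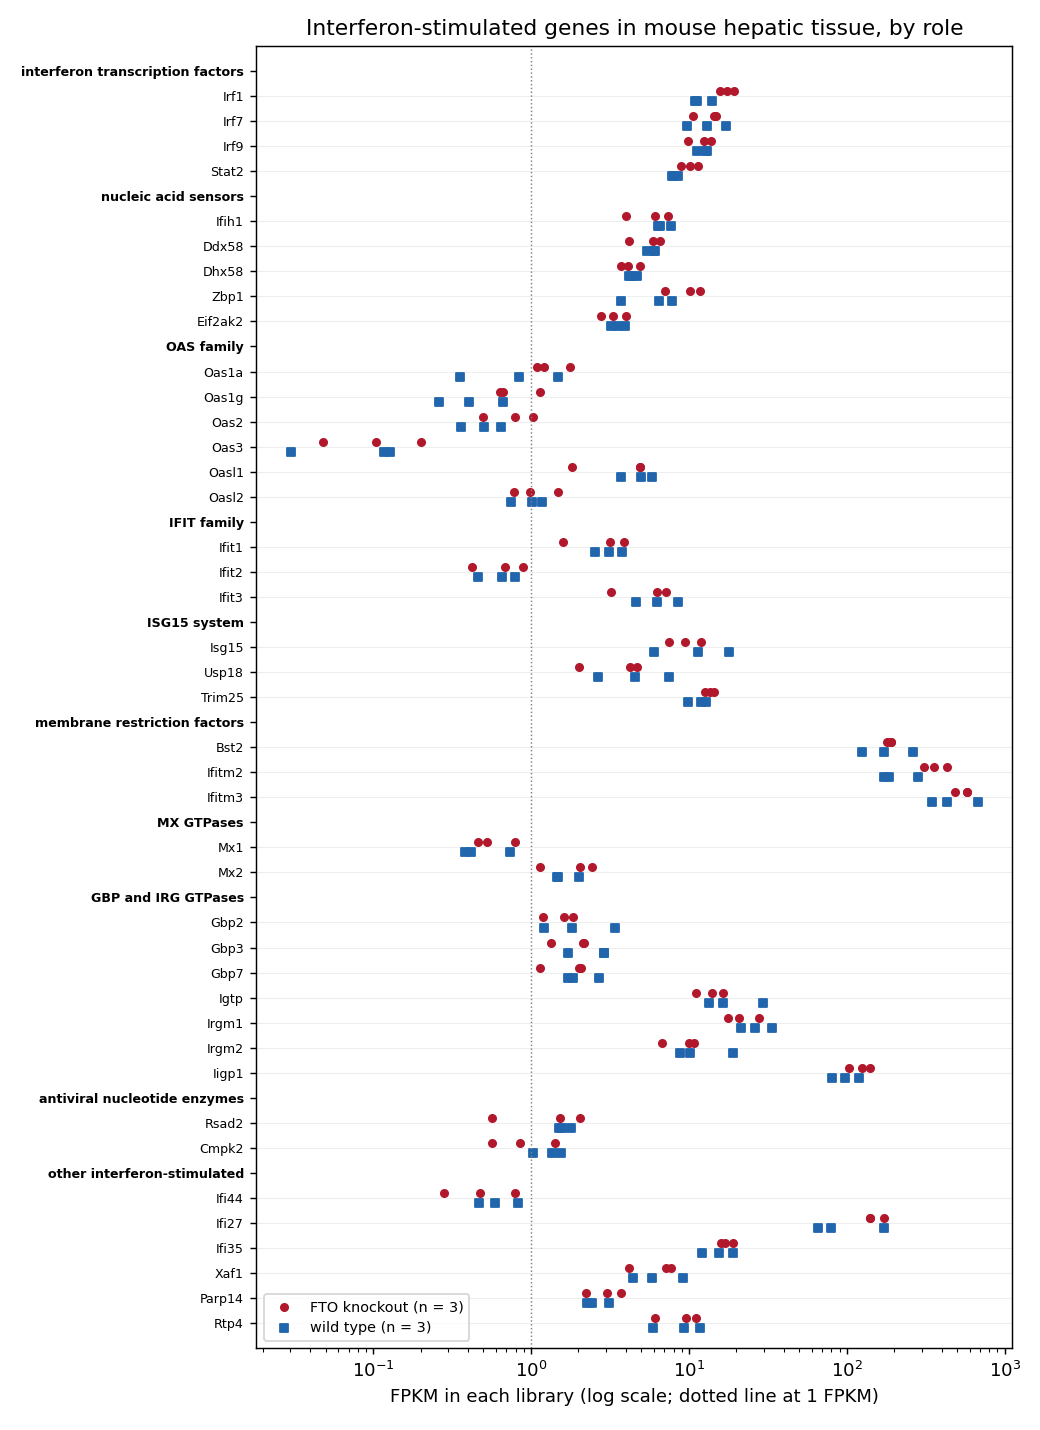
FPKM of all 41 interferon-stimulated genes in each library (log axis), FTO knockout as red circles above wild type as blue squares, grouped by role. The membrane restriction factors, Ifi27 and Iigp1 lie near or above 100 FPKM, and the groups overlap for every gene except Irf1, Stat2 and Ifitm2.

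None of the 35 tested ISGs was called in either direction. In the same limma fit 1.11% of all tested genes were called higher in FTO knockout (115 genes) and 1.65% lower (172 genes). At an unadjusted p under 0.05, 4 ISGs (Irf1, Stat2, Zbp1 and Ifitm2) were higher in knockout, where 8.65% of all tested genes were, and 0 were lower, where 10% were. All 3 knockout libraries lay above all 3 wild type libraries for 3 ISGs (Irf1, Stat2 and Ifitm2), against 11.5% of all tested genes. They lay below for 0 ISGs, against 13% of all tested genes. The median log2 change was -0.04 over the tested ISGs and -0.0018 over all tested genes, with 15 ISGs above 0 and 20 below. Single changes ran from -0.43 (Igtp) to 0.79 (Ifitm2). The 95% interval of the change lay within 1 log2 unit either way for 28 of the 35, and for 7 it reached past 1 unit, so a change of that size was not excluded for those 7.

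**Figure D3:**
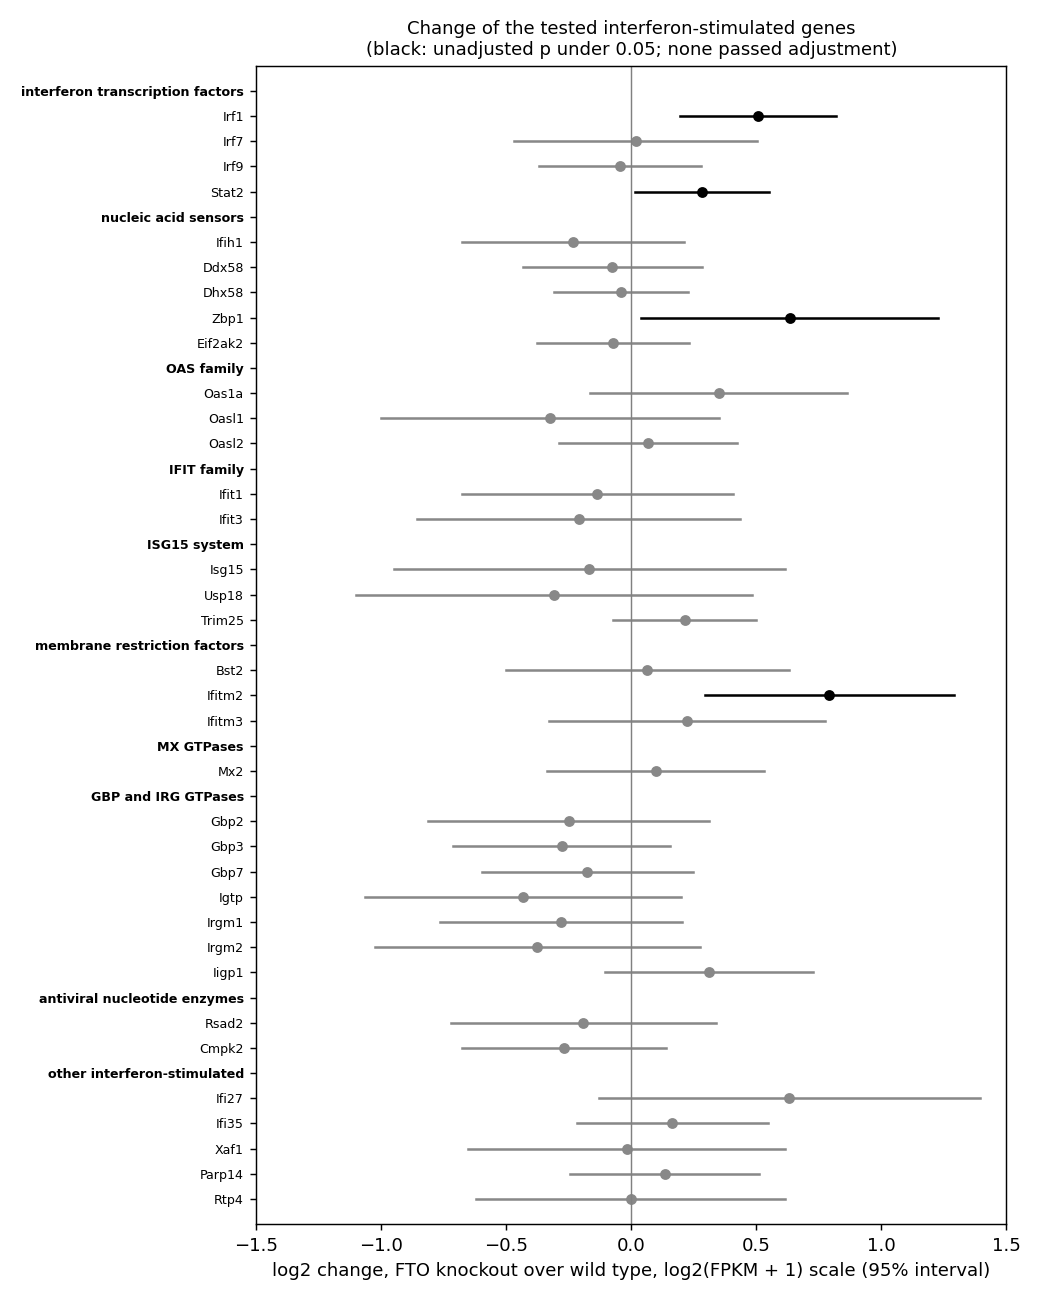
Log2 change of each tested interferon-stimulated gene, FTO knockout over wild type on the log2(FPKM + 1) scale, with its 95% limma interval (n = 3 each), grouped by role. Irf1, Stat2, Zbp1 and Ifitm2 (black) have intervals above 0 without adjustment, and 6 of the 7 GBP and IRG GTPases lie below 0 with intervals that cover 0.

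Among the transcription factors of the pathway, Irf1 had the smallest adjusted p of all 35 tested ISGs. IRF1 is induced by interferon gamma and in turn activates many ISGs. Irf1 (chr11:53770014-53778374) was measured at 15.7, 19.4 and 17.5 FPKM in FTO knockout libraries, against 11.2, 14.0 and 10.9 FPKM in wild type libraries. Each knockout library lay above each wild type library, and the means were 17.5 ± 1.85 and 12.05 ± 1.70 FPKM (SD, n = 3 each). The log2 change was 0.51 ± 0.13 (SE; limma, unadjusted p from the model across all genes = 0.00576, adjusted p = 0.0991), with a 95% interval of 0.20 to 0.82. Leaving out 1 library at a time left it between 0.44 and 0.61. An antisense gene, Gm17334, overlaps Irf1, and nothing in the sources says whether counting used strand. Irf7, Eif2ak2 and Rtp4 likewise overlap genes of the opposite strand (Phrf1, Gm26637 and Masp1).

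Stat2, the subunit of ISGF3 that carries its activation domain, stood at 10.2, 8.94 and 11.4 FPKM in FTO knockout and 8.55, 8.09 and 7.87 FPKM in wild type. The groups were apart by a narrow gap, with means of 10.2 ± 1.24 and 8.17 ± 0.350 FPKM. The log2 change was 0.28 ± 0.12 (limma, unadjusted p from the model across all genes = 0.0416, adjusted p = 0.244). The unadjusted p was over 0.05 when any library except FTO knockout replicate 2 was left out. The other 2 factors had overlapping groups. Irf7, the master regulator of type I interferon genes, had 10.6, 14.4 and 14.8 FPKM in FTO knockout and 9.75, 13.0 and 17.2 FPKM in wild type. Irf9, the DNA-binding subunit of ISGF3, had 9.90, 12.5 and 13.8 FPKM in FTO knockout and 11.2, 13.1 and 12.9 FPKM in wild type. Their log2 changes were 0.02 and -0.05. The annotated span of Irf9 overlaps that of Rnf31 on the same strand, so the Irf9 values are uncertain.

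The membrane restriction factors were the most abundant ISGs, and Ifitm2 had the largest log2 change of the 35 tested. IFITM2 and IFITM3 sit in endosomal membranes and hinder fusion of entering viruses, and BST2 (tetherin) holds budding virions at the cell surface. Ifitm2 (chr7:140954837-140955987) was measured at 430.3, 308.9 and 355.3 FPKM in FTO knockout, against 172.8, 185.8 and 281.4 FPKM in wild type. The lowest knockout library lay above the highest wild type library, with means of 364.8 ± 61.3 and 213.4 ± 59.3 FPKM, a 1.71-fold difference. The log2 change was 0.79 ± 0.21 (limma, unadjusted p from the model across all genes = 0.00657, adjusted p = 0.105), with a 95% interval of 0.29 to 1.29. Without wild type replicate 3 it was 1.01 and passed the threshold (adjusted p = 0.0265), and it also passed after quantile normalization (0.82, adjusted p = 0.0313). Its adjusted p was up to 0.319 when other libraries were left out.

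Ifitm3, which lies with Ifitm2 in a span of 55934 bases on chromosome 7, had groups that overlapped. It had 486.0, 581.4 and 577.3 FPKM in FTO knockout and 349.1, 433.0 and 675.9 FPKM in wild type, where replicate 3 was the highest of all 6 libraries. The log2 change was 0.22 ± 0.24 (limma, adjusted p = 0.677). Bst2 had 190.8, 179.7 and 189.8 FPKM in FTO knockout, 3 nearly equal values, and 125.6, 173.0 and 261.3 FPKM in wild type, which spread on both sides of them. Its means were 186.8 ± 6.14 and 186.7 ± 68.9 FPKM. Ifitm2 and Ifitm3 are close paralogs, and nothing in the sources says how reads fitting both were assigned.

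Of the nucleic acid sensors, Zbp1 alone had an unadjusted p under 0.05. ZBP1 binds Z-form nucleic acid and can trigger necroptosis. It was measured at 7.07, 10.2 and 11.7 FPKM in FTO knockout, against 3.71, 6.44 and 7.77 FPKM in wild type. The groups overlapped, since wild type replicate 3 lay above FTO knockout replicate 1. The means were 9.65 ± 2.37 and 5.97 ± 2.07 FPKM, and the log2 change was 0.63 ± 0.26 (limma, unadjusted p from the model across all genes = 0.0395, adjusted p = 0.241). Without wild type replicate 1 it was 0.37. The unadjusted p was over 0.05 in the limma fits without that library, FTO knockout replicate 2 or FTO knockout replicate 3, and with no filter on low values.

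The other sensors had log2 changes below 0 and overlapping groups. Ifih1 (MDA5) had 3.98, 6.14 and 7.35 FPKM in FTO knockout and 6.34, 6.53 and 7.72 FPKM in wild type. Ddx58 (RIG-I) had 4.16, 5.92 and 6.61 FPKM in FTO knockout and 5.43, 6.01 and 6.07 FPKM in wild type. In both genes FTO knockout replicate 1 was the lowest library and the rest lay close together. Dhx58 (LGP2, a regulator of the other two) ranged from 3.74 to 4.92 FPKM in FTO knockout and from 4.16 to 4.68 FPKM in wild type. Eif2ak2 (PKR, a kinase that stops translation when it meets double-stranded RNA) ranged from 2.77 to 3.998 FPKM in FTO knockout and from 3.21 to 3.92 FPKM in wild type. The log2 changes of these 4 genes ran from -0.23 to -0.04.

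The oligoadenylate synthetases, which make the signal that activates RNase L, were low in this tissue. Oas1a had 1.10, 1.20 and 1.78 FPKM in FTO knockout and 0.357, 0.845 and 1.47 FPKM in wild type, with a log2 change of 0.35 ± 0.22 (limma, adjusted p = 0.458). Its near-copy Oas1g had 0.669, 0.641 and 1.14 FPKM in FTO knockout and 0.261, 0.408 and 0.669 FPKM in wild type and was not tested. In both, wild type replicate 1 was the lowest library, and nothing in the sources says how reads that fit both genes were assigned. Oas2 had 0.499 to 1.03 FPKM in FTO knockout and 0.359 to 0.646 FPKM in wild type, and Oas3 was at or below 0.201 FPKM in all libraries. Of the Oasl genes, which encode OAS-like proteins, Oasl1 had 1.83, 4.89 and 4.90 FPKM in FTO knockout and 3.74, 5.82 and 4.998 FPKM in wild type, and Oasl2 ranged from 0.746 to 1.48 FPKM over all libraries.

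The IFIT proteins, which bind viral RNA and block its translation, gave overlapping groups. Ifit3 had 3.23, 6.29 and 7.14 FPKM in FTO knockout and 4.63, 6.25 and 8.53 FPKM in wild type. Ifit1 had 1.60, 3.19 and 3.86 FPKM in FTO knockout and 2.55, 3.12 and 3.79 FPKM in wild type. FTO knockout replicate 1 was the lowest of the 6 libraries for both, and the log2 changes were -0.21 (Ifit3) and -0.14 (Ifit1). Ifit2 was at or below 0.886 FPKM throughout.

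In the ISG15 system, Isg15 is a ubiquitin-like modifier, Usp18 removes it and dampens IFNAR signalling, and Trim25 is a ligase that activates RIG-I. Isg15 was measured at 7.51, 9.45 and 12.01 FPKM in FTO knockout, against 6.01, 11.4 and 17.9 FPKM in wild type. Wild type libraries spanned 2.97-fold, enclosing all 3 knockout values. The log2 change was -0.17 ± 0.34 (limma, adjusted p = 0.848), and it was 0.17 without wild type replicate 3 and -0.54 without wild type replicate 1. Usp18 had 2.02, 4.25 and 4.72 FPKM in FTO knockout and 2.65, 4.55 and 7.52 FPKM in wild type, with a like spread. Trim25 differed from both in being steady, at 12.7, 13.6 and 14.4 FPKM in FTO knockout and 11.9, 12.9 and 9.95 FPKM in wild type (log2 change 0.21, limma adjusted p = 0.411).

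The GBP and IRG GTPases, which coat and break vacuoles that hold bacteria and parasites and respond strongly to interferon gamma, gave no call. Of these 7 genes, 6 had a log2 change below 0 and 1 above, and the median was -0.28. This median rested on single libraries: it was -0.06, with 5 of 7 below 0, without wild type replicate 2, -0.14 without FTO knockout replicate 1 and -0.45 without wild type replicate 1. Igtp (Irgm3) had 11.1, 13.9 and 16.4 FPKM in FTO knockout and 13.5, 29.5 and 16.5 FPKM in wild type, with a log2 change of -0.43 ± 0.27 (limma, adjusted p = 0.450). Irgm2, with the near-identical promoter stretch printed above, had 6.79, 9.95 and 10.8 FPKM in FTO knockout and 10.2, 19.1 and 8.77 FPKM in wild type. In both, wild type replicate 2 stood far above the other 5 libraries. Without wild type replicate 2 the log2 change of Igtp was -0.12. The annotated spans of Igtp and Irgm2 overlap on the same strand of chromosome 11, so their values are uncertain.

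Irgm1, at 17.8, 20.9 and 27.8 FPKM in FTO knockout and 21.4, 33.8 and 26.4 FPKM in wild type, had the same highest wild type library. Gbp2 had 1.19, 1.62 and 1.85 FPKM in FTO knockout and 1.21, 3.40 and 1.83 FPKM in wild type, again with wild type replicate 2 standing out. Gbp3 and Gbp7 ranged from 1.14 to 2.16 FPKM in FTO knockout and from 1.70 to 2.92 FPKM in wild type. The exception in direction was Iigp1 (Irga6), the most abundant of the group, at 103.2, 124.3 and 140.1 FPKM in FTO knockout and 97.7, 118.7 and 80.8 FPKM in wild type. Its log2 change was 0.31 ± 0.18 (limma, adjusted p = 0.409), and its groups overlapped.

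Mx2, a dynamin-like antiviral GTPase, had 1.15, 2.06 and 2.45 FPKM in FTO knockout and 1.48, 2.02 and 1.47 FPKM in wild type, and Mx1 was at or below 0.789 FPKM in all libraries. Rsad2 (viperin), which makes a chain-terminating nucleotide, had 0.567, 1.52 and 2.05 FPKM in FTO knockout and 1.51, 1.57 and 1.79 FPKM in wild type. Cmpk2, its neighbour on chromosome 12 and a nucleotide kinase, had 0.564, 0.851 and 1.42 FPKM in FTO knockout and 1.04, 1.36 and 1.55 FPKM in wild type. FTO knockout replicate 1 was the lowest library for all 3 tested genes here.

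Among the remaining ISGs, Ifi27, a mitochondrial membrane protein, had 140.9, 140.4 and 173.3 FPKM in FTO knockout and 66.1, 79.6 and 172.8 FPKM in wild type. All 3 knockout libraries and wild type replicate 3 were high, and the other 2 wild type libraries were low. The log2 change was 0.63 ± 0.33 (limma, adjusted p = 0.359), and 2 libraries decided its size. Without wild type replicate 3 it was 1.05 and passed the threshold (adjusted p = 0.0199), and without wild type replicate 1 it was 0.36 (adjusted p = 0.603). Ifi35 had 16.1 to 18.9 FPKM in FTO knockout and 12.1 to 19.0 FPKM in wild type. Xaf1, an antagonist of the apoptosis inhibitor XIAP, had 4.15 to 7.67 FPKM in FTO knockout and 4.41 to 9.24 FPKM in wild type. Rtp4 had 6.10 to 11.1 FPKM in FTO knockout and 5.92 to 11.8 FPKM in wild type, with a log2 change of -0.0018, the closest to 0 of the 35. Parp14, a mono-ADP-ribosyltransferase, had 2.22 to 3.71 FPKM in FTO knockout and 2.28 to 3.12 FPKM in wild type. Ifi44 was at or below 0.822 FPKM.

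The ISGs varied between libraries of the same group more than most genes. Their median within-group SD was 0.32 on the log2 scale, against 0.17 over all tested genes, and 30 of the 35 lay above the median of all tested genes. Much of this variation ran the same way across genes. FTO knockout replicate 1 was the lowest of its group and replicate 3 the highest for 27 of the 35 (77.1%), against 25.7% of all tested genes. Wild type replicate 1 was the lowest and replicate 3 the highest for 22 of the 35 (62.9%), against 33.9% of all tested genes. For 12 of the 35 (34.3%), wild type replicate 2 was the highest of its group, against 21.9% of all tested genes. These 12 included 6 of the 7 GBP and IRG GTPases (Gbp3 being the exception), Irf1, Irf9 and Parp14. The genes are not independent of each other, and these shares describe the libraries.

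**Figure D4:**
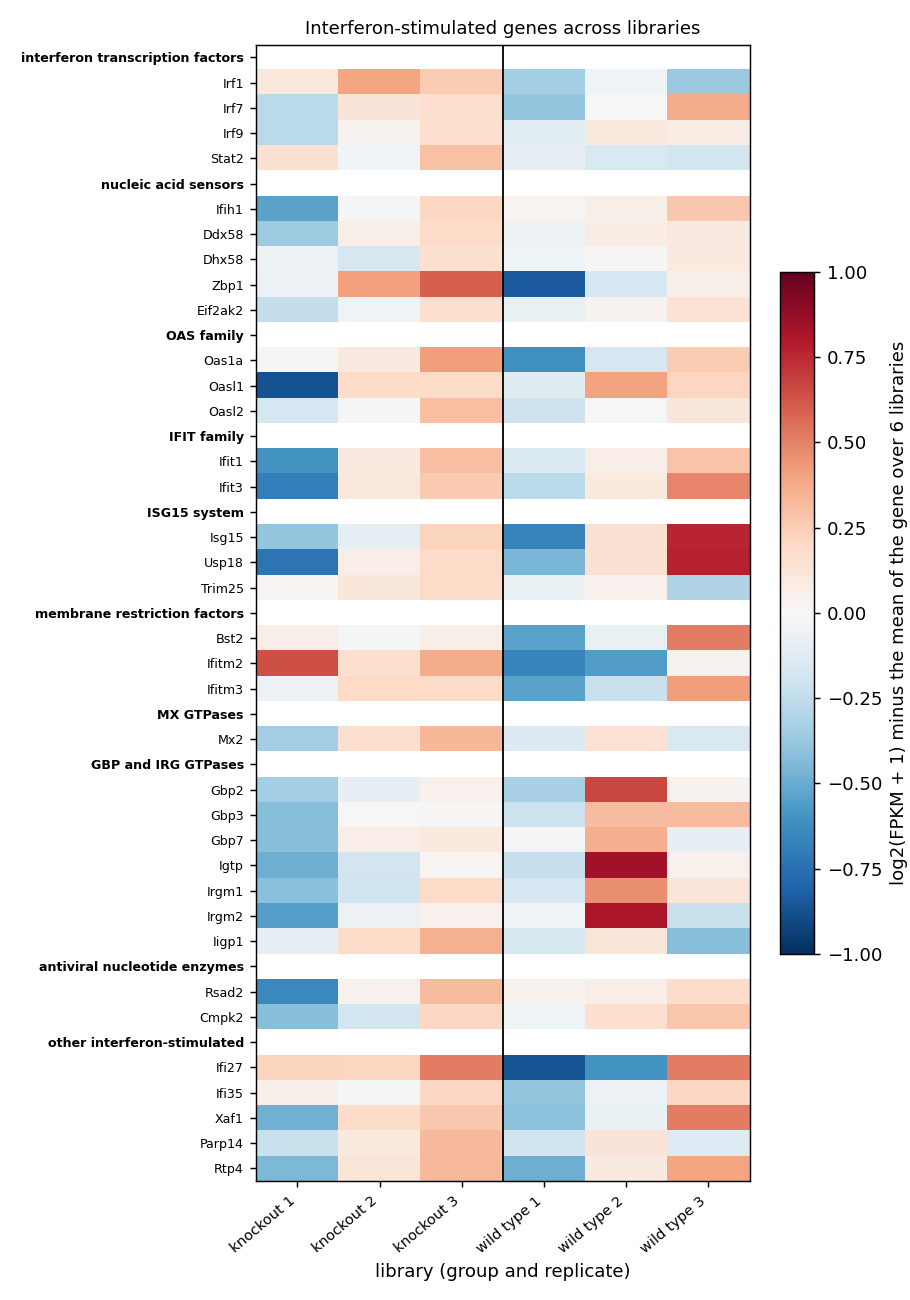
Log2(FPKM + 1) of each tested interferon-stimulated gene in each library minus the mean of that gene over the 6 libraries (colour), with FTO knockout left of the line and wild type right of it. FTO knockout replicate 1 is blue for most genes outside the membrane factors, wild type replicate 2 is red for the GBP and IRG GTPases, and Isg15 and Usp18 are darkest in wild type replicate 3.

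The ligands upstream were near or at the floor of the table. Of 12 interferon genes in the table, none reached 1 FPKM, and Ifnb1, Ifne, the listed alpha genes and the lambda genes Ifnl2 and Ifnl3 were listed at 0 in all 6 libraries. Ifng had 0.0544, 0.0554 and 0.0221 FPKM in FTO knockout and 0.0545, 0 and 0.0539 FPKM in wild type. Ifnk was above 0 only in FTO knockout replicate 3 (0.0370 FPKM) and wild type replicate 1 (0.183 FPKM). Differences in interferon RNA were not detectable at this depth.

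Of the 6 interferon receptor genes, 5 were tested and none was called. At an unadjusted p under 0.05, 1 was higher, where 8.65% of all tested genes were. Ifngr1, the ligand-binding chain for interferon gamma, had 6.28, 5.14 and 7.19 FPKM in FTO knockout and 4.18, 4.48 and 5.46 FPKM in wild type (log2 change 0.33 ± 0.14, limma adjusted p = 0.267). Il10rb, a chain shared with lambda interferon and interleukin 10, had 4.54, 3.97 and 4.88 FPKM in FTO knockout and 2.80, 2.90 and 4.52 FPKM in wild type. Both overlapped between groups. Ifnar1 had 5.62, 5.66 and 6.50 FPKM in FTO knockout and 5.21, 5.35 and 4.47 FPKM in wild type, and Ifnar2 had 59.9, 56.5 and 62.3 FPKM in FTO knockout and 62.4, 62.1 and 65.4 FPKM in wild type. Only Ifnar1 had its knockout libraries all above wild type, by a gap smaller than the range within either group.

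No JAK-STAT gene of the 11 tested was called. At an unadjusted p under 0.05, 1 was higher and 1 was lower, where 8.65% and 10% of all tested genes were. All 3 knockout libraries lay above all 3 wild type libraries for 1 gene, against 11.5% of all tested genes. They lay below for 3 genes, Tyk2 among them, against 13% of all tested genes. Socs3, a feedback inhibitor best known for interleukin 6 signalling, had 5.15, 3.26 and 4.82 FPKM in FTO knockout and 2.53, 1.51 and 1.13 FPKM in wild type. The groups were apart, and the log2 change was 1.004 ± 0.22 (limma, adjusted p = 0.0560), just outside the threshold. Stat3 had 13.7, 13.9 and 21.4 FPKM in FTO knockout and 10.8, 13.7 and 10.7 FPKM in wild type, and Tyk2 had 2.14, 2.86 and 2.86 FPKM in FTO knockout and 2.92, 3.19 and 3.11 FPKM in wild type (limma adjusted p = 0.285 and 0.474).

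Of 54 tested further interferon-inducible genes (such as immunoproteasome subunits, chemokines and other GBP genes) none was called in either direction. At an unadjusted p under 0.05, 5 were higher and 1 lower, where 8.65% and 10% of all tested genes were. The median log2 change of the 54 was 0.04. The 10 tested genes of interferon induction (adaptors of sensors, kinases and Toll-like receptors) gave no call. Without adjustment 1 was higher and 1 was lower, beside the same shares of all tested genes.

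Immune cells also express ISGs, and the summed levels of several of their marker lists varied between libraries of the same group. In bulk tissue, fewer cells of a type and less RNA per cell cannot be told apart. Of 18 Kupffer cell and macrophage markers, 16 were tested and none was called. At an unadjusted p under 0.05, 6 were higher, where 8.65% of all tested genes were. All 16 had a log2 change above 0, as did 5176 of all 10405 tested genes, and the median of the 16 was 0.86. Their summed level was 329.4, 247.6 and 431.3 FPKM in FTO knockout replicates 1, 2 and 3, against 88.2, 146.9 and 298.5 FPKM in wild type replicates 1, 2 and 3. In wild type the order of these sums was the order most ISGs had. In FTO knockout the orders differed. Replicate 2 was the lowest for 14 of the 16 markers, against 41.2% of all tested genes. For 29 of the 35 ISGs replicate 1 was the lowest, against 44.4% of all tested genes. Fcgr1 and Itgam, the markers not tested, were at or below 0.689 FPKM.

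Neutrophil markers summed to 7.41, 6.73 and 13.1 FPKM in FTO knockout and 3.49, 6.41 and 12.5 FPKM in wild type, and none of the 2 tested was called. Markers of T and NK lymphocytes summed to 2.16, 3.38 and 3.87 FPKM in FTO knockout and 1.70, 3.61 and 3.93 FPKM in wild type. Of these 12 markers none reached the filter, and Cd3e was at or below 0.113 FPKM in each library. Dendritic cell markers summed to 3.10 to 3.55 FPKM in FTO knockout and 2.67 to 3.42 FPKM in wild type, with 0 of 9 tested. Of 10 endothelial markers none was called and the median log2 change was 0.03. Their sums rose from replicate 1 to replicate 3 in both groups, the order most ISGs had. These sums were 103.0, 122.1 and 140.9 FPKM in FTO knockout and 80.5, 95.1 and 175.1 FPKM in wild type. FTO knockout replicate 1 was the lowest of its group for 8 of these 10 markers, against 44.4% of all tested genes. In wild type, replicate 1 was the lowest for 5 of the 10 and replicate 2 for 5, against 43.5% and 21.4% of all tested genes. The T and NK marker sums also rose from replicate 1 to replicate 3 in both groups. So did those of stellate cell markers, at 62.3, 84.8 and 91.6 FPKM in FTO knockout and 66.7, 74.7 and 96.6 FPKM in wild type. Of the 4 stellate markers tested, none was called. Of 15 hepatocyte markers, 8 had a log2 change above 0 and 7 below, with a median of 0.03 and a lowest value of -0.72. At an unadjusted p under 0.05, 5 were higher and 1 was lower, where 8.65% and 10% of all tested genes were. Only 1 was called, where 1.11% of all tested genes were called higher. It was Ahsg, the plasma protein fetuin-A, at 4219, 4652 and 4774 FPKM in FTO knockout and 2897, 2868 and 2958 FPKM in wild type (limma adjusted p = 0.0425). The part of cell composition in the ISG values was not tested.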

How the data were processed

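Per the labels' protocols, Trizol-extracted total RNA was DNase-digested, cleaned on RNeasy columns and turned into standard Illumina libraries. The authors deposited FPKM values, 1 table for the 6 libraries; per the submitters' processing notes TopHat2 2.1.0, HTSeq, Cufflinks 2.2.1 and the build mm10 were used, with no role given for each. Symbols came from GENCODE annotation of GRCm38, which matched 24807 of 25690 identifiers. Groups were compared with limma 3.58.1 under R 4.3.3, two-sided with an intensity trend, for genes averaging 1 FPKM or more, a fit first tested on simulated data. Changes on the log2(FPKM + 1) scale understate those of low genes, and folds are ratios of mean FPKM. Depth was inferred from FPKM values above 0 of long single-transcript genes, taking each value as 1 fragment. Only implied depths inside a preset range were kept (49 to 60 values a library), and their median was taken. The range partly fixes this median. Counts were not recovered, so no count model was used.

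The 41 genes and all lists were chosen with earlier results of these data known. Library values are given for ISGs at an unadjusted p under 0.05 and for abundant ones, and for most others. From other lists the text names called genes and, for receptors and JAK-STAT, the 4 of smallest p, of which 1 is not reported here; Ifng, Ifnk, Cd3e, Fcgr1, Itgam and the 0 of albumin were named after their values were seen. Alternatives were median ratio and quantile normalization, robust empirical Bayes, other filters and a pseudocount of 0.1, each library left out, and removal of a transcript length trend, which was added after the data were seen.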

Additional observations from a re-analysis of the deposited data

How the results depend on the processing

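Under 13 alternatives, the number of ISGs called lower stayed at 0, and the number called higher was 0 except for quantile normalization (1, Ifitm2) and leaving out wild type replicate 3 (2, Ifitm2 and Ifi27), so with 1 library left out it ranged from 0 to 2. The median log2 change of the ISGs ranged from -0.17 to 0.09 with 1 library left out. Of the 35 tested ISGs, 16 changed sign under at least 1 alternative, none with a change above 0.33 in size. Of all tested genes, 180 were called higher after quantile normalization, against 115, and 93 were called lower with no filter on low values, against 172. With 1 library left out, 38 to 266 genes were called higher and 39 to 209 lower, the most without wild type replicate 3 (266 and 209) and the fewest without FTO knockout replicate 3 (38 and 39). The share of higher calls was 56% without wild type replicate 3, against 40.1%. The cause of these shifts was not tested. With 3 libraries a group, 7 ISGs had intervals that reached past 1 log2 unit, and the 6 genes under 1 FPKM were left out by the filter. With a mean of at least 0.5 FPKM, which 5 of these 6 reach, no ISG was called. No paired analysis was possible because the labels give the groups no shared replicate numbers.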
